A study of Mus musculus with 16 samples.

Results

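The sites described here are places in the mouse genome where Gli2 was called in medulloblastomas lacking Sufu and Spop but not in medulloblastomas overexpressing SmoM2, and where the active chromatin mark H3K27ac was called in only a single one of these genotypes. They were chosen by overlap of the deposited peak lists. A Gli2 peak of the Sufu;Spop double knockout (DKO) list was kept if it shared no base with any SmoM2 Gli2 peak and at least 1 base with an H3K27ac region of exactly 1 of the genotypes. The DKO list held 1426 Gli2 peaks on the autosomes, X and Y, of which 1341 were absent from the SmoM2 Gli2 list, and 253 of these met the rule. The SmoM2 Gli2 list held only 148 peaks on these chromosomes. Absence from so short a list does not show that Gli2 was missing in SmoM2 tumours. Of the 253, 157 lay in H3K27ac of DKO tumours only and are called DKO-acetylated sites. The other 96 lay in H3K27ac of SmoM2 tumours only and are called SmoM2-acetylated sites. For comparison, 538 DKO-only Gli2 peaks lay in H3K27ac of both genotypes and 550 in H3K27ac of neither.

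In tumours of mice at postnatal day 13, chromatin immunoprecipitation with sequencing (ChIP-seq) was done for Gli2, H3K27ac and H3K36me3. One group of tumours carried SmoM2 overexpression and the other the Sufu;Spop double knockout. The series holds 16 libraries, 4 of them input DNA, and the 12 antibody libraries are represented by 6 peak lists, each standing for 2 libraries. The sources used here do not give the promoter or Cre line that drives these alleles, nor whether the 2 libraries of a list came from separate animals. The sites were not set against genes, so the tissue was not checked by marker genes.

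Gli2 is the main transcriptional activator at the end of the Hedgehog pathway, which drives the proliferation of cerebellar granule neuron precursors, the cells from which this kind of medulloblastoma arises. SmoM2 is a constitutively active Smoothened, the membrane protein that switches the pathway on. Sufu binds Gli proteins and holds them in check, and Spop is the adaptor that brings them to the Cul3 ubiquitin ligase. H3K27ac is an acetyl mark on the histones next to active promoters and enhancers. It is often lower right at a bound factor, where nucleosomes are displaced, and higher on either side. H3K36me3 is laid down across the bodies of transcribed genes.

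Because each list stands for both libraries of its group, no value below has a spread between tumours, and no test across tumours was possible. Positions are in mouse build mm9. Fold enrichment and −log10 q are the authors' values for each peak, the first over the caller's background and the second rising with the strength of the call. They rank peaks within a list only. Intervals of shares are Wilson 95% intervals, intervals of differences of shares are Newcombe 95% intervals, and intervals of medians are order-statistic 95% intervals. They cover counting error and the spread over sites, not the variation between animals. Sequence depth is unknown. The fragment number at each Gli2 summit was recovered from the deposited fold and p. Its median was 23 (20–25) for DKO-acetylated and 26.5 (23–32) for SmoM2-acetylated sites. For the 84 SmoM2-acetylated sites on autosomes it was 25 (22–29).

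DKO-acetylated sites outnumbered SmoM2-acetylated sites, and bases acetylated in a single list were likewise more numerous in the DKO list. The 157 DKO-acetylated sites were 11.7% of the 1341 DKO-only Gli2 peaks, and the 96 SmoM2-acetylated sites were 7.16%. These percentages are fixed by the rule and are given as a description. The ratio of the subsets was 1.64, whereas the bases acetylated in a single list, 10.9 Mb for DKO and 4.60 Mb for SmoM2, stood at 2.37 to 1. Put as shares, 62.1% (55.9–67.8%) of the sites were acetylated in DKO tumours, compared with 70.4% of the bases acetylated in a single list. On the autosomes the site share was 65.1% (58.9–70.9%) and the base share 70.4%. Both shares come from the lists the rule used, so setting them side by side is a description and not a test. The ratio depended on the strength required of the H3K27ac call. With H3K27ac regions of −log10 q of at least 5, which left 6384 DKO and 3650 SmoM2 regions, it was 162 to 30 (5.40). With the 3650 highest regions of each list it was 80 to 73 (1.10).

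Most of the sites lay close to H3K27ac of the genotype in which they were not acetylated, as the full lists give it. H3K27ac of the other genotype was within 1000 bp of 67.5% of DKO-acetylated and 79.2% of SmoM2-acetylated sites. This did not hold when only H3K27ac regions with −log10 q of at least 5 were counted in both lists. The shares were then 6.79% of 162 and 26.7% of 30 sites, most of which were other sites than those described here. In the plot of H3K27ac coverage by distance from the Gli2 summit, the list of the other genotype fell to 0 at the summit, as the rule requires, and rose on either side. Among DKO-acetylated sites, H3K27ac of SmoM2 tumours covered 35.0% of the sites 500 bp to one side and 36.3% 500 bp to the other. Among SmoM2-acetylated sites, H3K27ac of DKO tumours covered 52.1% and 49.0% at the same distances, compared with 55.2% and 58.3% for the SmoM2 list itself. At 2000 bp the coverage by DKO H3K27ac was 9.38% and 8.33%, and that by SmoM2 H3K27ac 11.5% and 7.29%. At 1000 bp both lists covered 24.0% and 28.1% of the SmoM2-acetylated sites. Differences between the lists in coverage were not tested. For DKO-acetylated sites the DKO list stayed higher at 500 bp (61.8% and 67.5%) and at 2000 bp (15.9% and 14.01%, compared with 7.01% and 5.10% in the SmoM2 list).

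**Figure D1:**
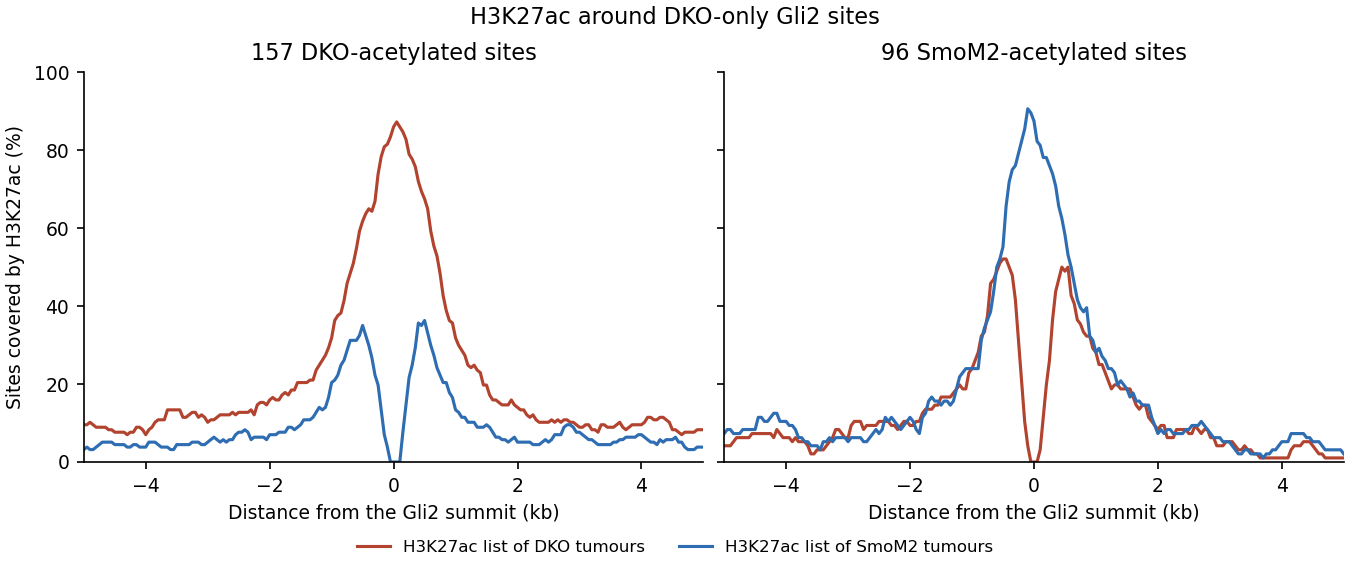
Share of sites covered by an H3K27ac region (y axis, %) by distance from the Gli2 summit (x axis, kb), for the 157 DKO-acetylated sites (left) and the 96 SmoM2-acetylated sites (right), with 1 line for each H3K27ac list. The list of the genotype without acetylation is at 0 at the summit by the rule, and reaches 36.3% (SmoM2 list, left) and 52.1% (DKO list, right) at 500 bp.

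The distance to the nearest H3K27ac region of the other genotype, where 1 bp means that the region adjoins the peak, was short for most sites. Its median was 206 bp (163–283) for DKO-acetylated and 141 bp (98–190) for SmoM2-acetylated sites. SmoM2 H3K27ac lay within 500 bp of 102 of 157 DKO-acetylated sites (65.0%, 57.2–72.0%). For all 707 DKO-only Gli2 peaks outside SmoM2 H3K27ac the share was 36.4%, and for the 550 sites acetylated in neither genotype it was 28.2%. DKO H3K27ac lay within 500 bp of 74 of 96 SmoM2-acetylated sites (77.1%, 67.7–84.4%), with 42.1% for all 646 DKO-only peaks outside DKO H3K27ac and 198 of the 550 sites acetylated in neither genotype. On the autosomes the SmoM2-acetylated share was 88.1% (79.5–93.4%). Only 20 DKO-acetylated and 6 SmoM2-acetylated sites lay over 500 and up to 10000 bp from the other genotype's H3K27ac, and 35 (22.3%, 16.5–29.4%) and 16 (16.7%, 10.5–25.4%) lay farther than 10 kb.

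**Figure D2:**
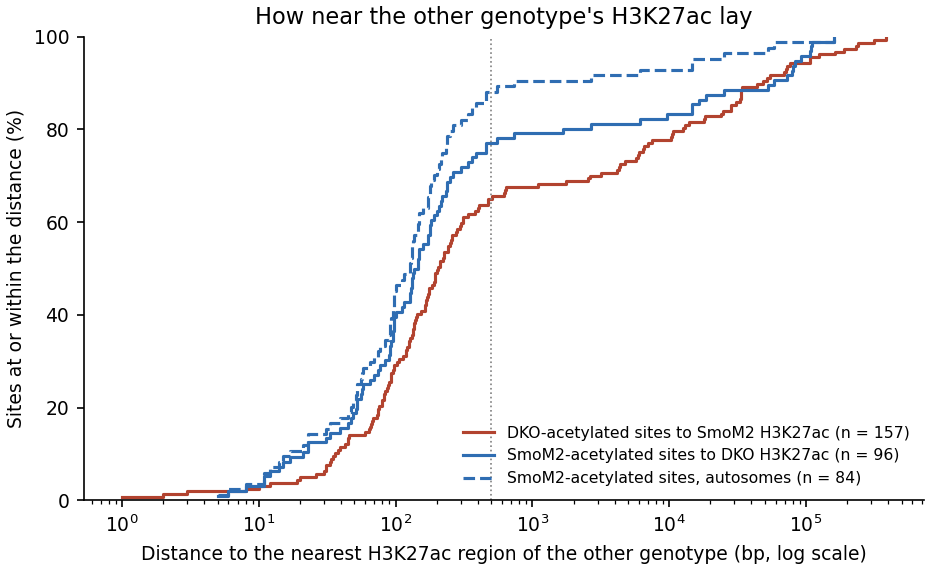
Cumulative share of sites (y axis, %) within a given distance (x axis, bp, log scale) of the nearest H3K27ac region of the genotype in which the site was not acetylated, with a dotted line at 500 bp. At 500 bp the lines stand at 65.0% for DKO-acetylated sites, 77.1% for SmoM2-acetylated sites and 88.1% for the 84 SmoM2-acetylated sites on autosomes.

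In the other genotype, the site often fell in a short stretch between 2 called regions. SmoM2 H3K27ac lay within 500 bp on both sides of 39 DKO-acetylated sites (24.8%, 18.7–32.1%) and on 1 side of 63. DKO H3K27ac lay within 500 bp on both sides of 38 SmoM2-acetylated sites (39.6%, 30.4–49.6%) and on 1 side of 36. Among the 550 sites acetylated in neither genotype, both sides were flanked at 8.55% for the SmoM2 and 12.9% for the DKO list. The uncalled stretch around the flanked sites was 500 to 984 bp long in the SmoM2 list (median 601 bp) and 415 to 815 bp in the DKO list (median 500.5 bp). Neighbouring regions of a list were never closer than 481 bp in the SmoM2 and 413 bp in the DKO list, so no narrower stretch could appear. The limit of 500 bp on each side also bounded the stretches from above. Among all stretches within 1000 bp between neighbouring regions, the median was 623 bp in the SmoM2 and 552 bp in the DKO list. Many of the regions under the sites were themselves in both lists, as were many regions of the whole lists. The DKO region under 96 of 157 DKO-acetylated sites (61.1%, 53.3–68.4%) overlapped a SmoM2 region elsewhere along its length, and 39 spanned at least 2 SmoM2 regions. Over the whole DKO list 52.7% of regions shared a base with a SmoM2 region. For SmoM2-acetylated sites the count was 70 of 96 (72.9%, 63.3–80.8%), with 33 spanning at least 2 DKO regions, and the share in the whole SmoM2 list was 73.4%. The regions under the sites were wider than those of the whole lists, and the part of width in these shares was not tested.

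The strongest DKO-acetylated Gli2 sites show this arrangement. Of the 10 with the highest −log10 q, 8 had SmoM2 H3K27ac within 500 bp and 5 had it on both sides. The first, chr15:10463169-10463452, had a fold enrichment of 20.4 and lay inside a DKO H3K27ac region of 6142 bp (−log10 q 11.8) that spanned 3 SmoM2 regions, the nearest ending 92 bp before and starting 196 bp after the peak. The site at chr8:106833839-106834038 (fold 20.8) lay in a DKO region of 2262 bp, with SmoM2 regions 340 bp before and 142 bp after it. The site at chr3:8731357-8731784 (fold 19.1) had SmoM2 regions 36 and 70 bp away on its sides, under a DKO region of 3514 bp. Each of these sites thus lay in an unbroken DKO region, with SmoM2 regions on both sides and none at the Gli2 peak. The SmoM2 list covered 738, 2792 and 1981 bp within 10 kb of their summits, in the order named. The DKO list covered 6142, 3548 and 9521 bp, so the SmoM2 list lacked more than the peak itself. These windows include the DKO region the rule required, so this excess is fixed in part by the rule.

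Another flanked site, chr1:120897975-120898169 (fold 21.3), lay 117 bp from another DKO Gli2 peak. It was 249 bp from an H3K36me3 region of DKO tumours and 562 bp from one of SmoM2 tumours. At chr7:71683884-71684378 (fold 19.1) the DKO region was 5137 bp wide and the SmoM2 regions were 266 and 210 bp away. The sites at chr12:81104587-81104840 (fold 21.9), chr8:119834920-119835132 (20.4) and chr11:117839459-117839684 (18.9) had SmoM2 H3K27ac on 1 side only, at 45, 76 and 143 bp. The other two of the 10 stood alone. The site at chr1:94683891-94684204, which had the highest fold enrichment of the DKO-acetylated sites (23.1), lay in a weak DKO region of 957 bp (−log10 q 2.19), 43762 bp from SmoM2 H3K27ac. The site at chr15:82798947-82799247 (fold 21.7) lay in a DKO region of 1744 bp (−log10 q 6.58), 68758 bp from SmoM2 H3K27ac.

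Among the strongest SmoM2-acetylated sites Gli2 fold enrichment ranged from 14.7 to 36.1, and among the DKO-acetylated ones above from 18.9 to 23.1. Some SmoM2-acetylated sites were likewise flanked by H3K27ac of the other genotype and some were isolated. Of the 10 with the highest −log10 q, 7 had DKO H3K27ac within 500 bp and 5 had it on both sides. The site at chr17:31563352-31563600 ranked 17 in the whole DKO Gli2 list (fold 35.9, −log10 q 114), yet its SmoM2 H3K27ac region was among the weakest of that list (1211 bp, −log10 q 1.43, rank 19455 of 21630), and DKO H3K27ac began 6129 bp away. The site at chr2:33960699-33960908 (fold 36.1, rank 18) lay in a SmoM2 region of 4301 bp (−log10 q 5.93) that spanned 3 DKO regions, 133 and 290 bp from the peak. These sites were thus among the highest Gli2 peaks of DKO tumours while H3K27ac at the peak was called in SmoM2 tumours only.

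At chr11:75683306-75683678 (fold 30.4) DKO regions lay 45 and 122 bp away, at chr7:85910074-85910385 (26.5) 100 and 147 bp away, at chr12:8460208-8460455 (19.7) 188 and 15 bp away and at chr10:125391955-125392161 (14.7) 74 and 178 bp away. In the order named, the DKO list covered 3972, 2140, 1683 and 5095 bp within 10 kb of their summits. The SmoM2 list covered 2016, 2229, 998 and 4356 bp. At chr2:33960699-33960908 the DKO list covered 1857 bp and the SmoM2 list 5732 bp. The site at chr11:97842021-97842339 (24.8) shows how fine the division can be, since it shared 28 bases with a SmoM2 region and missed a DKO region by 5 bp. The site at chr5:53553816-53553995 (23.1) had DKO H3K27ac on 1 side, at 95 bp. The other 2 were isolated, at chr5:141018811-141019032 (30.4), 58312 bp from DKO H3K27ac, and chr5:134549652-134549830 (20.0), 25349 bp from it.

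The H3K27ac regions under the sites were wider than typical regions of their list. The median width was 1228 bp (1029–1522) under DKO-acetylated sites, compared with 483 bp for all 29504 DKO regions. It was 1134 bp (987–1394) under SmoM2-acetylated sites, compared with 523 bp for all 21630 SmoM2 regions. The comparison is a description, since a wide region has more room to hold a Gli2 peak. The calls were moderate. The median −log10 q was 3.28 (2.92–3.78) for DKO-acetylated and 3.02 (2.43–3.57) for SmoM2-acetylated sites, and 2.62 and 2.43 in the whole lists. A −log10 q of at least 5 was reached at 41 of 157 DKO-acetylated sites (26.1%, list 21.6%) and 11 of 96 SmoM2-acetylated sites (11.5%, list 16.9%). The Gli2 summit itself lay in the region at 135 of 157 and 84 of 96 sites. Over all sites the median distance from the summit to the region's nearer edge was 367 and 413.5 bp.

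**Figure D3:**
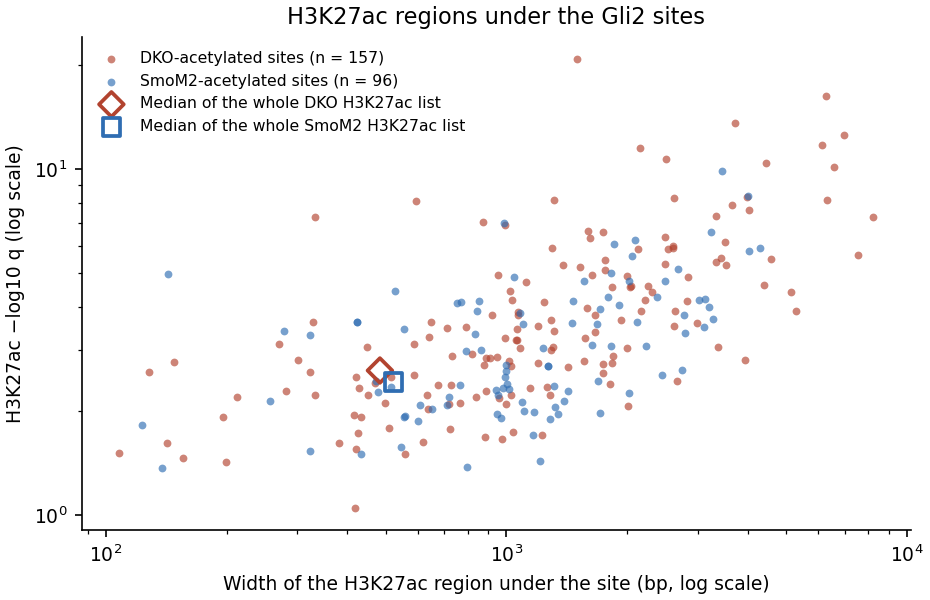
Width (x axis, bp, log scale) and −log10 q (y axis, log scale) of the H3K27ac region under each DKO-acetylated site (157 red points, DKO list) and each SmoM2-acetylated site (96 blue points, SmoM2 list). The open diamond and square mark the medians of the whole lists, 483 bp and 2.62 for DKO and 523 bp and 2.43 for SmoM2, and most points lie to their right.

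The sites with the most strongly called H3K27ac also bordered acetylation in the other genotype. All 5 DKO-acetylated sites with the highest H3K27ac −log10 q (11.8 to 20.9) had SmoM2 H3K27ac within 195 bp. The strongest, chr4:119861318-119861692, had a Gli2 fold enrichment of 10.9 and a DKO region of 1500 bp that ranked 252 of 29504, with SmoM2 H3K27ac 66 bp away. The site at chr8:125329558-125329726 (Gli2 fold 6.96) lay in a region of 6282 bp inside a domain of 140045 bp made by joining DKO regions at most 10 kb apart, with SmoM2 H3K27ac 245 and 97 bp away. The site at chr17:71479100-71479432 (fold 11.7) lay in a region of 3712 bp that spanned 3 SmoM2 regions. Among the 5 such SmoM2-acetylated sites (−log10 q 6.24 to 9.91), 4 had DKO H3K27ac within 500 bp. They included chr4:126848111-126848310 (Gli2 fold 10.4, DKO regions 11 and 233 bp away) and chr8:122906510-122906721 (fold 7.16, 128 and 186 bp away, inside a SmoM2 domain of 93135 bp). The remaining one lay on chromosome Y.

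At 35 DKO-acetylated sites SmoM2 H3K27ac was more than 10 kb away. Their DKO regions were narrower (median 793 bp, 451–1029) than those of the 102 sites within 500 bp (1461 bp, 1081–1761) and had a median −log10 q of 2.51 compared with 3.79. Their median Gli2 fold enrichment was 6.96 (5.65–10.0), compared with 9.95 (8.70–11.3) for the sites within 500 bp, and 12 of the 35 (34.3%, 20.8–50.8%) were in the upper-ranked 50.0% of the DKO Gli2 list by −log10 q, compared with 54 of 102 (52.9%, 43.3–62.3%). The farthest was chr3:63320382-63320602, 382147 bp from SmoM2 H3K27ac, with a fold enrichment of 3.98, a DKO region of only 212 bp and a local background of 6.03 fragments, the highest of the subset. The site at chr4:125393725-125393852 was 316682 bp away (fold 7.83, region of 1587 bp) and the site at chr16:89570757-89571072 was 242249 bp away (fold 13.2, region of 1818 bp). The next were chr3:126066774-126066888 at 232410 bp and chr5:129312580-129312766 at 189641 bp.

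Isolated SmoM2-acetylated sites were mostly on the sex chromosomes. Of the 16 sites more than 10 kb from DKO H3K27ac, 6 were autosomal, and the farthest of all was chr11:35096586-35096776 at 161499 bp (Gli2 fold 12.6, SmoM2 region of 1164 bp). Chromosome Y held 10 of the 96 SmoM2-acetylated sites and chromosome X held 2, whereas no DKO-acetylated site lay on either (0 of 157, which allows a share of up to 1.91% by a limit of 3 counts, with a Wilson upper bound of 2.39%). The 10 sites were 10 of the 14 DKO-only Gli2 peaks of chromosome Y (71.4%, 45.4–88.3%). On that chromosome the SmoM2 list held 45 H3K27ac regions and the DKO list 3. The 10 sites lay between positions 2475784 and 2891586, and 8 of them had another DKO Gli2 peak within 10 kb. A SmoM2 Gli2 peak, although not overlapping, was also within 10 kb of 8, the nearest at 363 bp.

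The chromosome Y sites also differed in the kind of call. Their Gli2 fold enrichment was 2.08 to 3.72 over a recovered local background of 16.4 to 31.2 fragments, whereas 40 of the 84 autosomal SmoM2-acetylated sites and 86 of the 157 DKO-acetylated sites stood at the lowest background of the list, 1.30 fragments. Their H3K27ac fold enrichment was 1.48 to 1.98, below the median of 3.76 for the subset. The part of this high background in the result was not tested. On the autosomes alone, 38 of the 84 SmoM2-acetylated sites (45.2%, 35.04–55.9%) were flanked on both sides by DKO H3K27ac, 7.14% (3.31–14.7%) lay farther than 10 kb from it, and 70 (83.3%, 73.9–89.8%) were on a region that overlapped the DKO list.

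**Figure D4:**
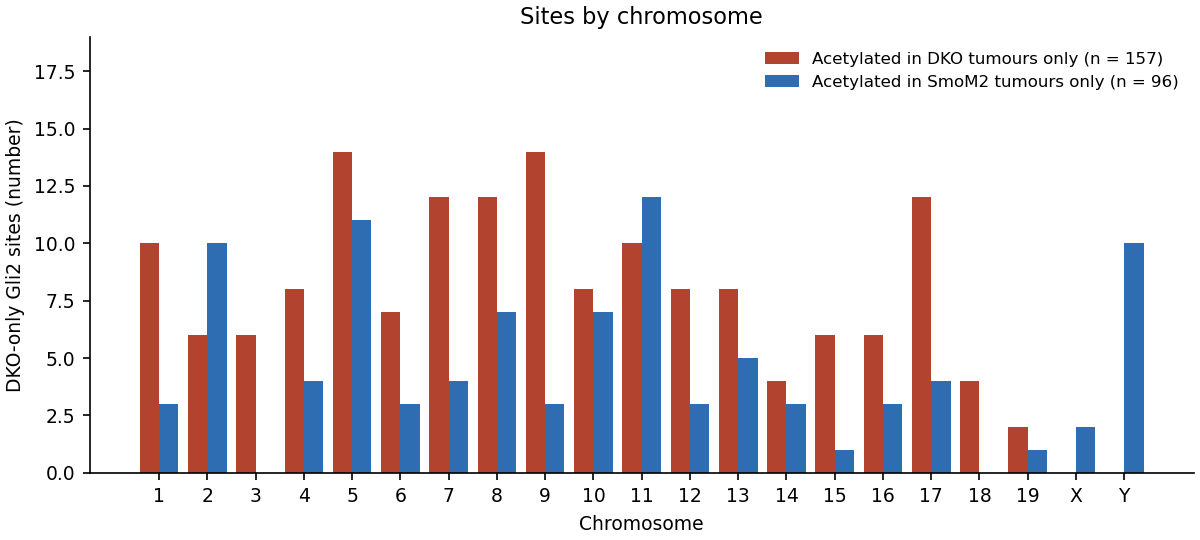
Number of DKO-acetylated (red) and SmoM2-acetylated (blue) sites (y axis) on each chromosome (x axis). Chromosome Y holds 10 SmoM2-acetylated and 0 DKO-acetylated sites, and chromosome 9 holds 14 DKO-acetylated and 3 SmoM2-acetylated sites.

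Among the autosomes the balance of the subsets varied. Chromosomes 5 and 9 held 14 DKO-acetylated sites each, and chromosomes 7, 8 and 17 held 12 each. SmoM2-acetylated sites were most numerous on chromosome 11 (12), chromosome 5 (11) and chromosome 2 (10). Chromosome 2 and chromosome 11 were the autosomes with more SmoM2-acetylated than DKO-acetylated sites (10 against 6 and 12 against 10), although on both the DKO list had more bases acetylated in a single genotype (859 kb against 401 kb and 944.5 kb against 369.7 kb). Chromosomes 3 and 18 held no SmoM2-acetylated site. These counts are small and were not tested.

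Gli2 itself had similar fold enrichment in the subsets. The median fold enrichment was 9.13 (8.15–10.6) at DKO-acetylated and 9.26 (8.26–10.4) at SmoM2-acetylated sites, between the 8.59 of sites acetylated in neither genotype and the 10.0 of sites acetylated in both. For the 84 autosomal SmoM2-acetylated sites it was 10.0 (9.08–11.7). Peak widths were likewise close, with medians of 171 bp (161–189) and 160 bp (150–185). The upper-ranked 50.0% of the DKO Gli2 list held 74 of 157 DKO-acetylated sites (47.1%, 39.5–54.9%) and 51 of 96 SmoM2-acetylated sites (53.1%, 43.2–62.8%). The difference of −5.99 percentage points (DKO-acetylated minus SmoM2-acetylated, −18.3 to 6.61) was not distinguishable from 0. On the autosomes it was −13.6 points (−26.0 to −0.355), with 60.7% of the 84 SmoM2-acetylated sites in that upper part, so whether the interval excluded 0 depended on the 12 sites of the sex chromosomes. SmoM2-acetylated sites exceeded the 39.1% of sites acetylated in neither genotype by 14.03 points (3.29–24.5). Across 10 groups of peaks by rank the DKO-acetylated share of DKO-only peaks ranged from 8.82% to 14.4% and the SmoM2-acetylated share from 4.26% to 11.1%, with no steady trend in either.

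H3K36me3, which the rule did not use, lay under few of the sites, and mostly under DKO-acetylated ones. Of 157 DKO-acetylated sites, 7 (4.46%, 2.18–8.92%) overlapped H3K36me3 of DKO tumours and 9 (5.73%, 3.04–10.5%) that of SmoM2 tumours. Over all DKO Gli2 peaks the shares were 2.31%, inside the first of these intervals, and 2.66%, below the second. Of 96 SmoM2-acetylated sites, none overlapped H3K36me3 of DKO tumours, which allows a share of up to 3.12% by a limit of 3 counts (Wilson upper bound 3.85%), and 1 (1.04%, 0.184–5.67%) overlapped that of SmoM2 tumours. The difference between the subsets was 4.46 points (−0.0150 to 8.92) for DKO and 4.69 points (−0.658 to 9.57) for SmoM2 H3K36me3, so it was not resolved at these numbers. DKO-acetylated sites did exceed sites acetylated in neither genotype, by 3.37 points (0.757–7.86) and 4.10 points (1.05–8.96). They were not resolved from sites acetylated in both genotypes (2.97% and 2.60%). Those differences were 1.48 points (−1.42 to 6.08) and 3.13 points (−0.0595 to 8.04). When Gli2 peaks below a −log10 q of 5 were left out, the DKO-acetylated share in DKO H3K36me3 was 2.17%.

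In all, 10 DKO-acetylated sites lay in H3K36me3, 6 of them in both genotypes. The DKO-acetylated site with the most strongly called H3K27ac among these, chr9:121672133-121672249, had a weak Gli2 peak (fold 5.22) inside a DKO H3K27ac region of 6960 bp. Others marked in both genotypes were chr17:56733438-56733567 (Gli2 fold 10.8) and chr14:26397309-26397514 (7.39). The sites at chr5:35901705-35901965 (14.8) and chr11:97670413-97670601 (12.6) lay in H3K36me3 of SmoM2 tumours only, and chr5:75581847-75581967 (8.70) in that of DKO tumours only. So only 1 of the 10 had both marks called in DKO tumours alone. H3K36me3 of the other genotype lay 207 bp from chr5:35901705-35901965, 1373 bp from chr11:97670413-97670601 and 853 bp from chr5:75581847-75581967. The only SmoM2-acetylated site in H3K36me3 was chr10:83087012-83087150 (13.05), in the SmoM2 list. These sites were named after their values were seen.

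Within 10 kb, H3K36me3 was about as frequent near either subset. A DKO H3K36me3 region lay within 10 kb of 38.2% (31.0–46.0%) of DKO-acetylated and 38.5% (29.4–48.5%) of SmoM2-acetylated sites, a difference of −0.325 points (−12.7 to 11.7). On the autosomes it was −5.83 points (−18.7 to 6.95). Both shares were below the 58.7% of sites acetylated in both genotypes, with differences of −20.5 points (−28.8 to −11.7) and −20.2 points (−30.2 to −9.35). They were above the 24.4% of sites acetylated in neither, by 13.9 points (5.70–22.4) and 14.2 points (4.32–24.7). With the H3K36me3 list of SmoM2 tumours the shares were 36.9% and 41.7%, again between those other classes (56.9% and 24.2%). Sites acetylated in a single genotype were thus intermediate in how often H3K36me3 lay near them.

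**Figure D5:**
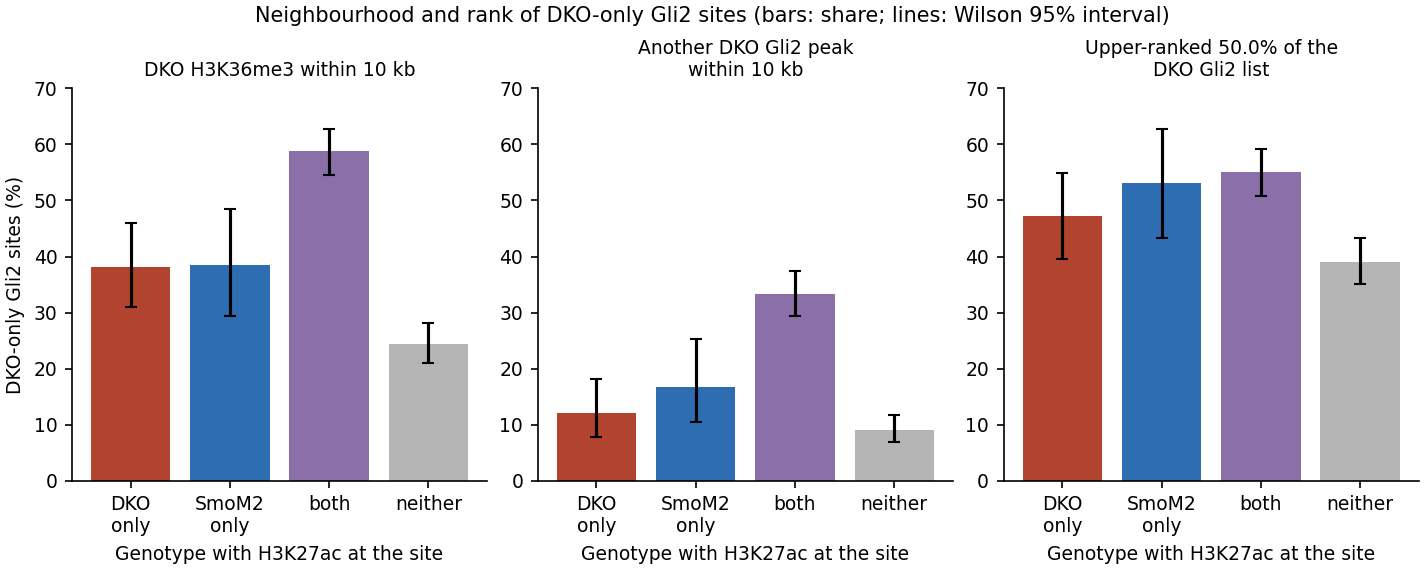
Share of DKO-only Gli2 sites (y axis, %, with Wilson 95% intervals) that had DKO H3K36me3 within 10 kb, another DKO Gli2 peak within 10 kb, or a place in the upper-ranked 50.0% of the DKO Gli2 list, by the genotype in which the site was acetylated (x axis: DKO only, n = 157; SmoM2 only, n = 96; both, n = 538; neither, n = 550). Sites acetylated in a single genotype stand at 38.2% and 38.5% in the first panel, between 58.7% (both) and 24.4% (neither).

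A minority of the sites had a close Gli2 neighbour. Another DKO Gli2 peak lay within 10 kb of 19 of 157 DKO-acetylated sites (12.1%, 7.89–18.1%) and 16 of 96 SmoM2-acetylated sites (16.7%, 10.5–25.4%), compared with 20.3% of all DKO Gli2 peaks. The subsets differed by −4.56 points (−14.2 to 4.04). On the autosomes the SmoM2-acetylated share was 9.52% (8 of 84) and the difference 2.58 points (−6.61 to 10.2), so its sign turned without the sex chromosomes. Both subsets were below the 33.3% of sites acetylated in both genotypes, with differences of −21.2 points (−27.04 to −14.02) for DKO-acetylated and −16.6 points (−23.98 to −7.09) for SmoM2-acetylated sites. Against the 9.09% of sites acetylated in neither genotype, the difference was 3.01 points (−1.99 to 9.40) for DKO-acetylated and 7.58 points (0.871–16.5) for SmoM2-acetylated sites, the latter with the sex chromosomes included. The nearest such neighbour of a DKO-acetylated site was most often a peak acetylated in both genotypes (11 of 19). The only DKO-acetylated neighbours were chr7:139862639-139862775 and chr7:139865812-139865944, 3037 bp apart. All 6 SmoM2-acetylated sites whose nearest neighbour was also SmoM2-acetylated were on chromosome Y.

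Acetylation farther out was more often greater in the DKO list, at a higher share of DKO-acetylated than of SmoM2-acetylated sites. From 10 to 50 kb from the summit, 120 of 157 DKO-acetylated sites (76.4%, 69.2–82.4%) had more H3K27ac bases in the DKO list and 19 had more in the SmoM2 list. Among SmoM2-acetylated sites 45 of 96 (46.9%, 37.2–56.8%) had more in the DKO list and 36 in the SmoM2 list. On the autosomes 44 of 84 (52.4%, 41.8–62.7%) had more in the DKO list and 26 (31.0%) in the SmoM2 list. Over all 1341 DKO-only Gli2 peaks the DKO list had more at 61.3%. At sites acetylated in both genotypes it had more at 397 of 538 (73.8%, 69.9–77.3%), near the share of DKO-acetylated sites. For sites acetylated in neither genotype the share was 47.3%. These values from 10 to 50 kb come from the lists the rule used, although from bases it did not, and are a description. Within 10 kb of DKO-acetylated sites the DKO list covered a median of 2349 bp and the SmoM2 list 772 bp. Around SmoM2-acetylated sites it was 1061 and 2262 bp, and on the autosomes 1677 and 2239 bp. The window within 10 kb includes the H3K27ac regions the rule used. These medians are thus fixed in part by the rule and only describe the sites.

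The threshold of 1 shared base ran through a continuum of small overlaps and small distances. Just inside it, chr17:24666184-24666309 shared 3 bases and chr7:87586996-87587111 shared 5 bases with a DKO H3K27ac region, and chr14:75326767-75326916 shared 6 bases with a SmoM2 region. Just outside it, among sites acetylated in neither genotype, chr2:84026385-84026537 lay 7 bp from a DKO region and chr5:112956124-112956264 lay 2 bp from a SmoM2 region. On the side of the other genotype, chr16:37385004-37385124 adjoined a SmoM2 region at 1 bp and chr16:4964408-4964682 missed one by 2 bp, and both count as DKO-acetylated. When H3K27ac within 500 bp was counted as present, 102 DKO-acetylated and 74 SmoM2-acetylated sites became sites acetylated in both genotypes. Most peaks were nevertheless wholly covered by their region, at 118 of 157 DKO-acetylated and 75 of 96 SmoM2-acetylated sites.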

How the data were processed

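The tools named in the submitters' processing notes are MACS2, BWA, bedtools and Trimmomatic 0.36, with build mm9. The sources used here do not give their roles, other versions or settings. Per the labels' protocols, tumours were crosslinked and sonicated before precipitation, and the same text names an Olig2 antibody on the beads that no sample label lists. The authors deposited 1 peak list per genotype and antibody, with a fold enrichment (a ratio), −log10 p, −log10 q and a score (10 times −log10 q) for each region. The other columns the authors deposited that were used hold positions.

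Samples were grouped by titles. Overlap meant at least 1 shared base on chromosomes 1 to 19, X and Y. Fragment numbers at Gli2 summits were solved from the deposited fold, taken as (fragments + 1) divided by (background + 1), and a Poisson upper tail p, and matched −log10 p within 0.01 for all 1426 DKO peaks. On simulated data 200 of 200 classes, 200 of 200 distances and 500 of 500 fragment numbers were recovered. The fragment numbers were simulated with the same formulas, so this checks the code and not whether the formulas hold for the deposited lists. Resampling over regions was not used, and 42 differences of shares were computed with unadjusted intervals. Named sites were, in each subset, the 10 with the highest Gli2 −log10 q, the 5 with the highest H3K27ac −log10 q and the 5 farthest from H3K27ac of the other genotype, with those at the overlap threshold as a description. The sites, lists and comparisons were chosen with earlier results of these data known. No mm9 genome or annotation was used, so genes and sequences at the sites are not analysed here. Scripts ran in Python 3.11.15 with matplotlib 3.10.9, statsmodels 0.14.6, scipy 1.17.1, pandas 2.3.3 and numpy 2.4.6. Alternatives changed the H3K27ac or Gli2 threshold, the overlap, joining and list length, and 2 added after seeing the data used autosomes alone and equal numbers of the highest regions.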

Additional observations from a re-analysis of the deposited data

How the results depend on the processing

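Of 89 values under planned settings 73 stayed within their interval, or within 1.5 times for counts, and 16 moved, and of 20 under added settings 16 stayed and 4 moved. The ratio of the subsets ranged from 1.10 to 5.40 and did not fall below 1. That most sites had H3K27ac of the other genotype within 1000 bp did not hold at the stricter H3K27ac threshold. The difference between the subsets in Gli2 neighbours turned from −4.56 to 2.58 points on the autosomes, and with joined regions the shares were 16.7% and 15.1%. With H3K27ac of −log10 q of at least 5, SmoM2-acetylated sites numbered 30 and the ratio was 5.40. The shares within 1000 bp of the other genotype were then 6.79% for DKO-acetylated and 26.7% for SmoM2-acetylated sites, on a region of both lists 11.1% and 33.3%, and with a Gli2 neighbour within 10 kb 28.4% and 36.7%. These are largely other sites, since 41 of 157 and 11 of 96 kept their class and 121 of the 162 DKO-acetylated sites were acetylated in both genotypes before. With H3K27ac within 500 or 1000 bp counted, SmoM2-acetylated sites numbered 62. With regions at most 1000 bp apart joined, the shares within 1000 bp were 56.8% and 64.4%, and 57.5% of SmoM2-acetylated sites were on a region of both lists. With the summit base covered, 69.1% of DKO-acetylated sites were on such a region. With Gli2 −log10 q of at least 10 there were 102 DKO-acetylated sites, with at least 5 their share in DKO H3K36me3 was 2.17%, and with equal numbers of the highest regions they numbered 80. On autosomes, SmoM2-acetylated shares were 90.5% within 1000 bp, 83.3% on a region of both lists and 9.52% with a Gli2 neighbour. The causes were not tested. No paired analysis was possible because every peak list covers the libraries of its group together, which also prevented leaving out a replicate. Settings that concern genes could not be run without an mm9 annotation.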
